A study of Rattus norvegicus with 10 samples.

Results

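The potassium channel family was taken as the loci whose gene symbol begins with Kcn, whatever its case. There were 106 such loci among the 25269 of the table. They carry 91 different names, since 15 symbols stand on more than 1 locus and 3 loci name a Kcn gene together with a neighbour. The loci were measured by poly-A RNA sequencing in the hippocampus of male Sprague Dawley rats of 200 to 240 g. TBI rats (5 libraries) had received a fluid percussion injury, in which a pulse of fluid pressure is applied to the dura, and sham rats (5 libraries) the surgery alone. Both groups went through a learning test 1 week after surgery, before the tissue was frozen. Values are FPKM (fragments per kilobase of transcript, scaled for library size), so levels of different loci are compared per length. The labels do not state that every library comes from its own animal, so the tests weigh differences against library-to-library spread, which may be technical. The comparison asks which members differ between injured and sham hippocampus.

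Potassium channels let potassium leave a cell, or enter it near rest, and so set the resting potential, end the action potential and limit repeated firing. Voltage-gated members (Kcna to Kcnd, Kcnh and Kcnq) open on depolarization, and the Kcnf, Kcng, Kcns and Kcnv proteins do not form channels alone but modify Kcnb channels. Kcnma1, Kcnt and Kcnn channels respond to internal calcium or sodium, Kcnj proteins form inward rectifiers, and Kcnk proteins form the tandem pore leak channels. Auxiliary proteins (Kcnab, Kcnip, Kcne and Kcnmb) tune the others. In the hippocampus most are known from neurons, while Kcnj10 and Kcnj16 are known from astrocytes and Kcnk13 from microglia.

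Most of the family was detected, over a wide range of levels. A mean of at least 10 FPKM over the 10 libraries was found for 38 loci, a mean of 1 to 10 FPKM for 44 and a lower mean above 0 for 20. The other 4 loci, Kcna10, Kcne1 and both Kcnk6 loci, were listed at 0 in every library. Kcnab2, a cytoplasmic subunit of Kcna channels, was the most abundant, at 117 to 258 FPKM in TBI and 195 to 316 FPKM in sham. The summed FPKM of all Kcn loci was 1138, 1399, 1449, 1389 and 1478 in TBI 1 to 5, against 1422, 1405, 1521, 1398 and 1577 in sham 1 to 5. TBI 1 was the lowest of the 10, and the other TBI libraries lay within or just under the sham range. Of the 82 tested loci with a mean of at least 1 FPKM, 27 had less than 2-fold between their lowest and highest library, and 47 did so when TBI 1 was set aside.

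**Figure D1:**
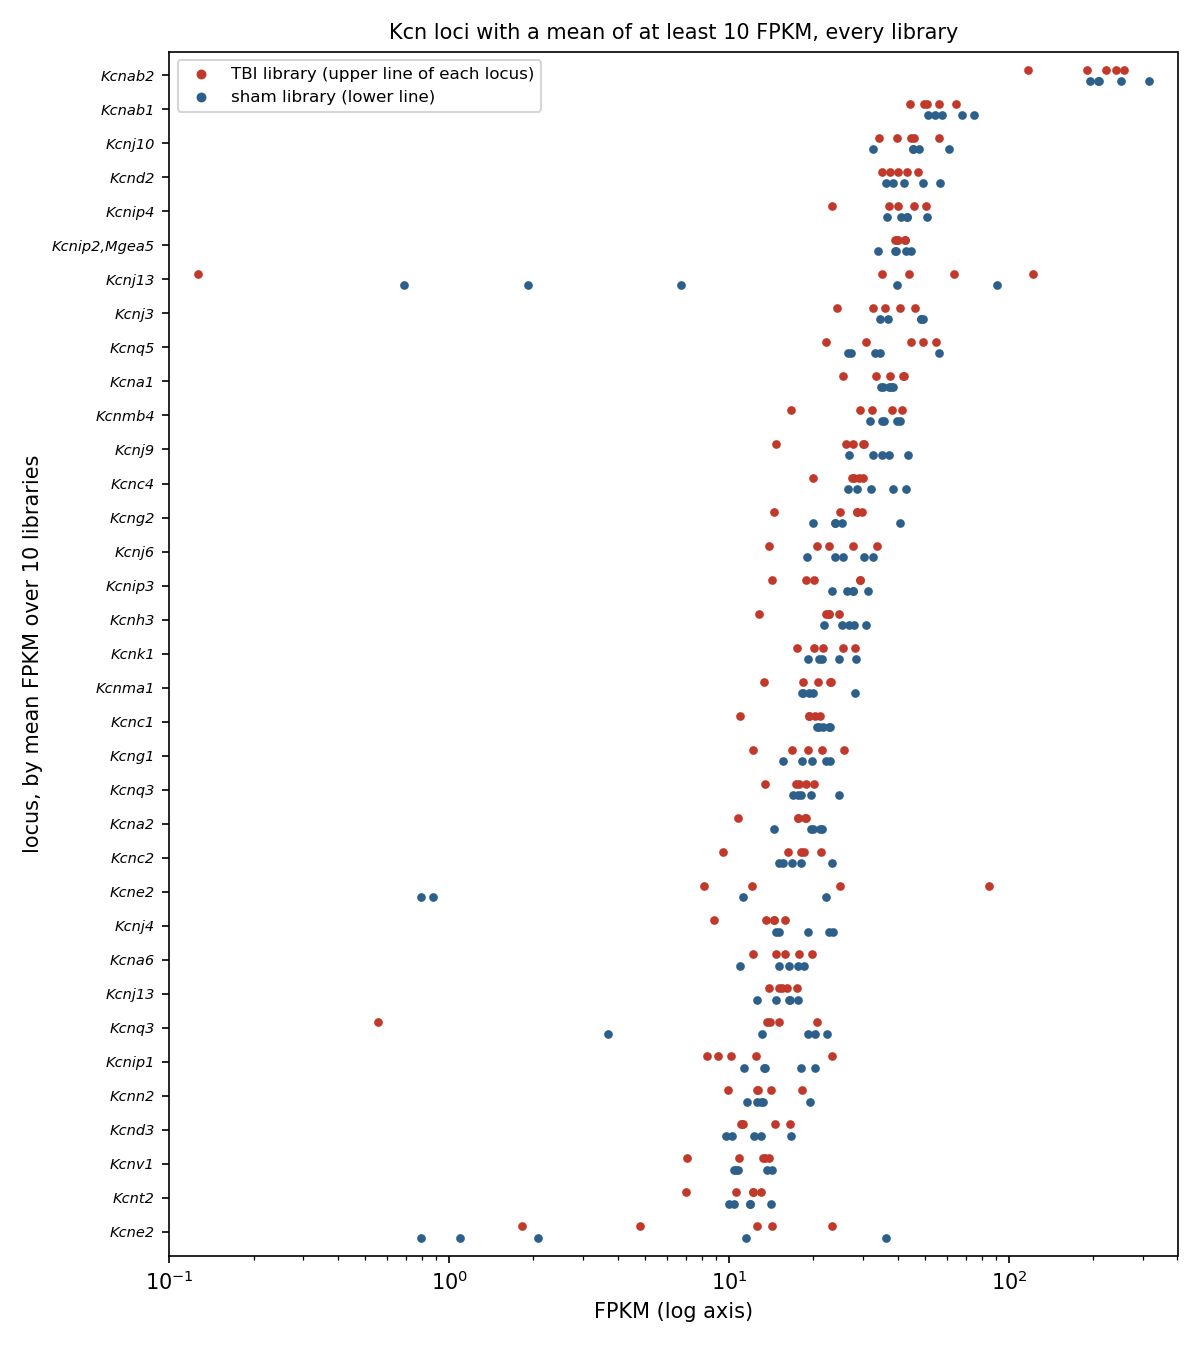
FPKM (log axis) of 35 of the 38 Kcn loci with a mean of at least 10 FPKM, ordered by that mean, with the 5 TBI libraries on the upper line of each locus and the 5 sham libraries on the lower line. Kcnab2 is the highest, the lowest TBI point of many loci is TBI 1, and 1 of 2 Kcnj13 loci and both Kcne2 loci are spread widely in both groups; 2 values listed at 0, both of Kcne2, lie off the axis.

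The libraries differed in the tissue they held. The summed FPKM of choroid plexus markers (Ttr, Clic6, Kl and Otx2) was 32469.6, 73.8, 9153, 11926 and 17906 in TBI 1 to 5, against 35.4, 31555, 9482, 57.4 and 426 in sham 1 to 5. TBI 1 also held the summed 10 pineal gland transcripts at 1832 FPKM, against at most 4.98 FPKM in the other TBI libraries and 33.5 FPKM in sham, a list drawn up after the values had been seen. The summed neuronal markers were lowest in TBI 1, at 1772 FPKM, against 2585 to 2941 in TBI 2 to 5 and 2393 to 3063 in sham. Snap25, Syt1, Rbfox3 and the more abundant Slc17a7 locus were each lowest there. The other Slc17a7 locus and Gad1 were not, with Gad1 at 65.2 FPKM in TBI 1 and 52.7 to 91.5 FPKM in sham. Of 86 tested Kcn loci, 38 (44.2%) had their lowest value in TBI 1, against 28.4% of all tested loci. On the log2 scale, the median deviation of the Kcn loci from their own means was -0.36 in TBI 1, against -0.04 for all tested loci. In the other 9 libraries the median deviation of the Kcn loci was between -0.08 and 0.09. Vascular smooth muscle and matrix markers were highest in TBI 1, sham 2 and sham 4. The part these contents have in the differences between groups was not tested, and in bulk tissue fewer cells of a type and less RNA per cell cannot be told apart.

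**Figure D2:**
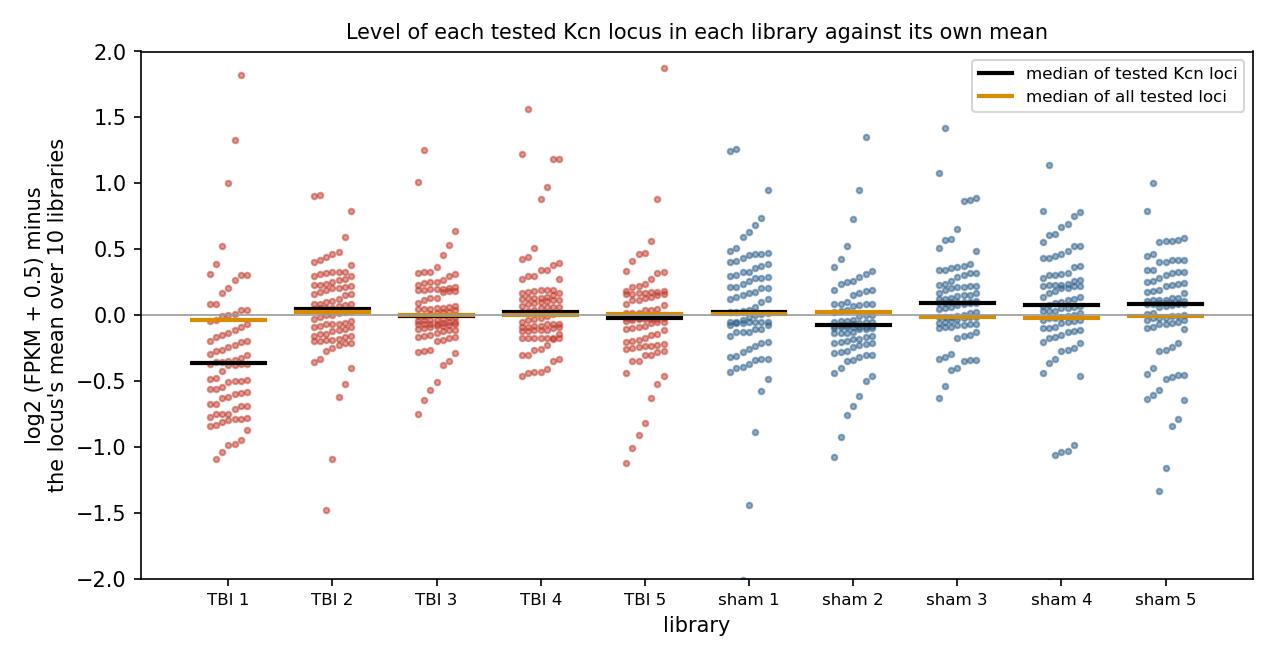
Each point is 1 of the 86 tested Kcn loci, as log2(FPKM + 0.5) in a library minus the mean of that locus over the 10 libraries; black bars are medians of the Kcn loci and orange bars medians of all 16889 tested loci. The Kcn median is -0.36 for TBI 1, while those of the other 9 libraries lie at -0.08 to 0.09; 18 points lie beyond 2 units, off the axis.

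No member passed the test between TBI and sham. The 86 loci with a mean of at least 0.5 FPKM were fitted with all 16889 such loci by limma, on log2(FPKM + 0.5). None of the 86 had an adjusted p under 0.05, nor did any locus of the table (0 of 16889, or 0%), and the smallest adjusted p of a Kcn locus was 0.988. At an unadjusted p under 0.05 there was 1 Kcn locus with a higher mean after TBI, where 1.34% of all tested loci were such, and there were 6 with a lower mean, where 1.48% were. The 5 TBI values lay above all 5 sham values at 1 Kcn locus, Kcnk13, against 0.225% of all tested loci, and below them at 0, against 0.237%. More members leaned down than up. A lower mean was found for 60 of the 86 loci (69.8%), with a median log2 difference of -0.13 (TBI minus sham), while 49.6% of all tested loci had a lower mean, with a median of 0.00135. Without TBI 1, 48 of 85 tested members (56.5%) had a lower mean, against 46.2% of all tested loci, and the family's median was -0.06. Leaving out TBI 1 and sham 4 together, a choice made after seeing the values, gave a median of -0.03, with 50 of 85 lower. Members share their tissue and libraries, so these counts describe the family and carry no test.

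The lean was uneven over the groups of members. All 4 Kcnc loci and all 3 Kcnma1 and Kcnt loci had a lower mean after TBI, as did 9 of 10 tested Kcnf, Kcng, Kcns and Kcnv loci, 5 of 7 Kcna, 9 of 13 Kcnj, 8 of 12 Kcnk, 10 of 16 auxiliary, 4 of 7 Kcnh, 4 of 6 Kcnq, 2 of 3 Kcnn and 1 of 3 Kcnd loci. The median log2 difference was lowest for Kcnh, at -0.32, and for Kcnc, at -0.25. Without TBI 1 these medians were -0.19 and -0.09. That of the Kcnj loci was -0.18 with TBI 1 and -0.16 without it. The Kcnq median was -0.17 with all libraries, 0.11 without TBI 1, 0.0021 without TBI 1 and sham 4, and -0.03 with libraries 2 to 5 of each group. Those of Kcnma1 and Kcnt, Kcnn and Kcnf to Kcnv were -0.10, -0.05 and -0.08 with all libraries and 0.04, 0.05 and 0.02 without TBI 1. Without TBI 1 and sham 4 that of Kcnma1 and Kcnt was -0.0060.

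**Figure D3:**
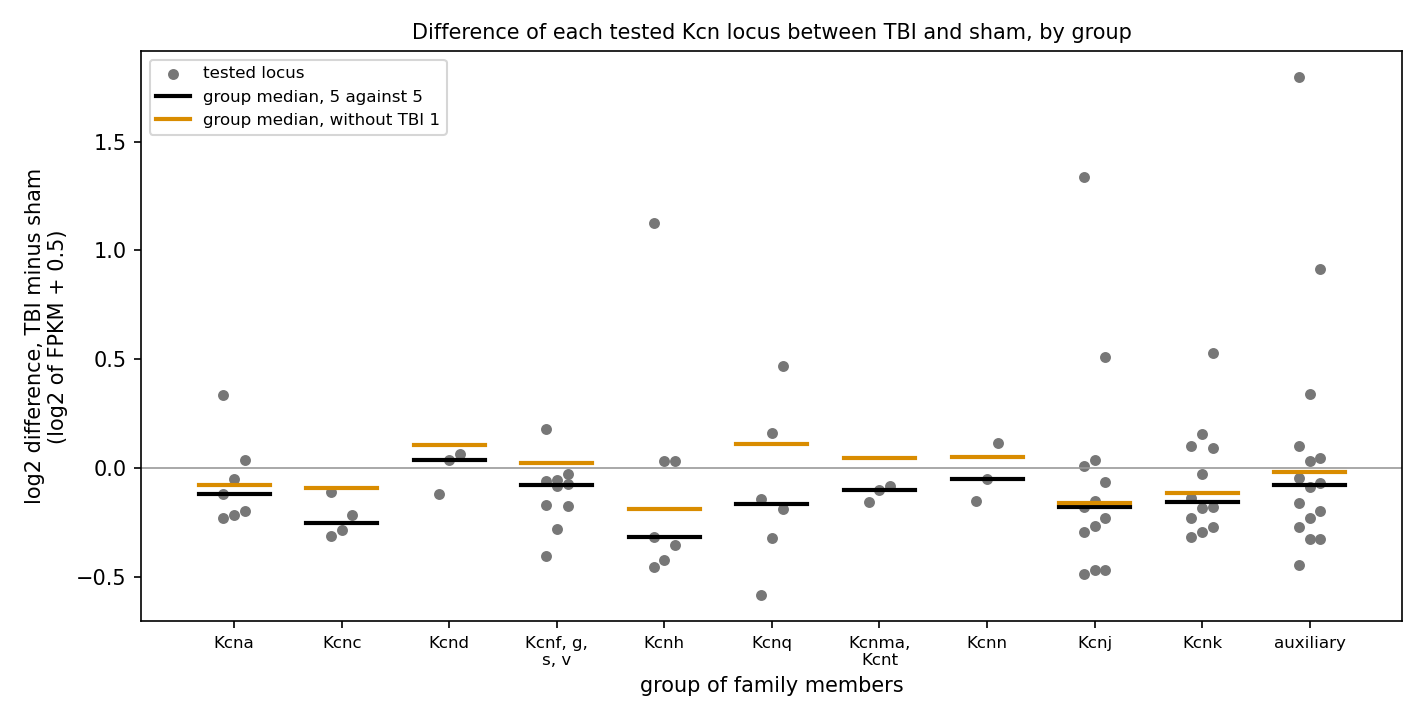
Log2 difference (TBI minus sham, on log2 of FPKM + 0.5) of each tested Kcn locus by group (the Kcnb group is not drawn), with the group median of all 10 libraries in black and without TBI 1 in orange. The black medians of 10 groups lie below 0, and the orange medians of Kcnd, Kcnq, Kcnma and Kcnt, Kcnn and the Kcnf to Kcnv group lie above it; the highest point is Kcne2.

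Kcnk13 was the member whose groups did not overlap. It encodes a tandem pore channel that carries the resting potassium current of rodent microglia. Its locus (XLOC_019715) was at 1.33, 1.45, 1.34, 0.955 and 1.34 FPKM in TBI 1 to 5, against 0.923, 0.773, 0.666, 0.721 and 0.583 FPKM in sham 1 to 5. The lowest TBI value, in TBI 4, lay just above the highest sham value, in sham 1. The mean was 1.28 ± 0.189 FPKM in TBI and 0.733 ± 0.127 FPKM in sham (SD, n = 5 each). The log2 difference was 0.53 (SE 0.13, 95% interval 0.24 to 0.82), with limma's unadjusted p = 0.00212 and adjusted p = 0.988. Permuting the group labels of the 10 libraries in every way (exact test, two-sided) gave p = 0.00794, the smallest it can give, and an adjusted p of 1. Over the 22 alternatives the log2 difference ran from 0.39 to 0.73, and without TBI 1 it was 0.52. After quantile normalization it was 0.45, and the groups then overlapped. In the GRCr8 annotation Kcnk13 overlaps LOC120103599, and reads of overlapping genes cannot be told apart without strand. Of the 9 tested loci of the microglia and macrophage list, 7 had a higher and 2 a lower mean after TBI, 0 of them at an unadjusted p under 0.05. The summed level of that list was 127 to 221 FPKM in TBI and 125 to 176 FPKM in sham, and its part in the Kcnk13 difference was not tested.

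The promoter of Kcnk13 is shown beside that of Kcnj13, a member whose level ranged widely between libraries, since they differ in CG content. Each stretch runs from 250 bases before to 50 bases after the start of the gene, from RefSeq on the GRCr8 assembly, 5′ to 3′ on the gene's strand, with each CG in capitals. That of Kcnk13 is chr6:124971559-124971858 on the plus strand and that of Kcnj13 is chr9:95518937-95519236 on the minus strand.
Kcnk13: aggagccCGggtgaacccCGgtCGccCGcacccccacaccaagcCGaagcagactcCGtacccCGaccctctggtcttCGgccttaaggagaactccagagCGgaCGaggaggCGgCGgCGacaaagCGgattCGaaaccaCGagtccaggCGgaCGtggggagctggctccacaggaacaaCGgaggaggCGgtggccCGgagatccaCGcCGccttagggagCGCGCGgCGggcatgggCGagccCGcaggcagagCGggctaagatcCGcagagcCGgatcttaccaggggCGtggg
Kcnj13: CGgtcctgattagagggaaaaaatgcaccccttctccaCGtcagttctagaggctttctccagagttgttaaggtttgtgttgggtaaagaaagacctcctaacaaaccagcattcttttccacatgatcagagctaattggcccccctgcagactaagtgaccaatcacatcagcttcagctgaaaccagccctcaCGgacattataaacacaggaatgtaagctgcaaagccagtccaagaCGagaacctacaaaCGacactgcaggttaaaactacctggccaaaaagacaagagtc
The Kcnk13 stretch holds 33 CG and 69.0% G or C, and the Kcnj13 stretch holds 5 CG and 46.3% G or C. Among 33469 RefSeq promoters of the same length 94.5% hold at least 1 CG, and the median is 7. Of them 7.53% have 33 or more and 43.7% have 5 or fewer. Of 90 Kcn genes matched to RefSeq, 61 have a promoter in the table, and their median is 14 CG. Of these 61, 9 have 33 or more and 11 have 5 or fewer. The count reads the same on both strands, and no factor or methylation was measured at these sites.

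**Figure D4:**
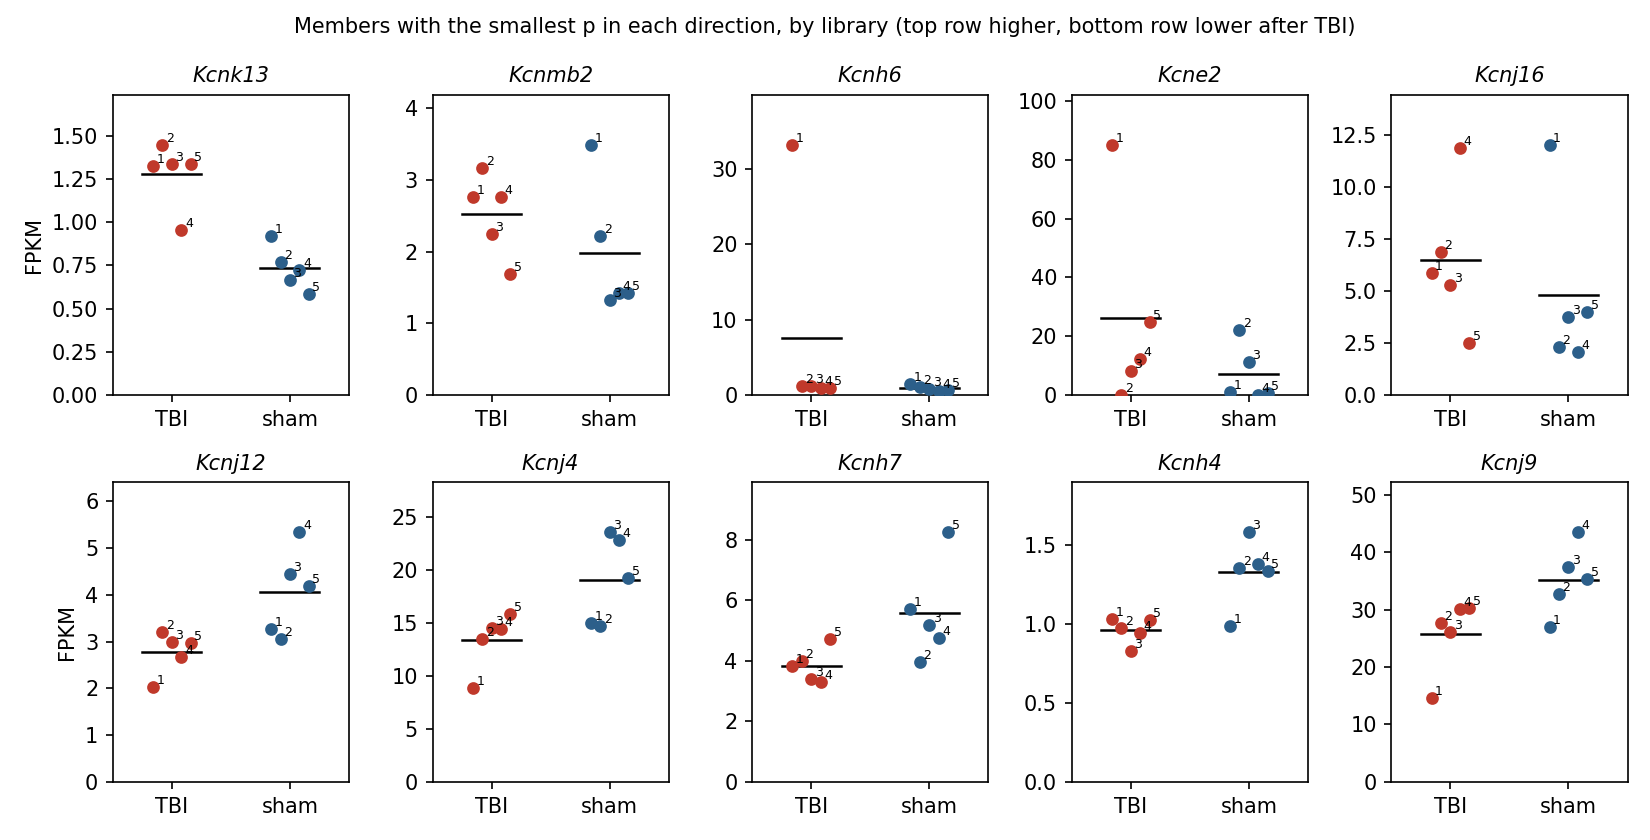
FPKM of the 5 tested loci with the smallest p and a higher mean after TBI (top row) and the 5 with a lower mean (bottom row), among loci with a mean of at least 1 FPKM; digits are library numbers and bars are means of 5 libraries. Only Kcnk13 has no overlap, at 0.955 FPKM or more in TBI and 0.923 or less in sham, and the Kcnh6 mean rests on TBI 1.

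The next smallest p-values belonged to the lower means of Kcnj12, Kcnj4, Kcnh7, Kcnh4 and Kcnj9, of which 3 are inward rectifiers of neurons. Kcnj12 and Kcnj4, which encode strong inward rectifiers, and Kcnj9, a subunit of the channels opened by G proteins, all leaned down. Kcnj12 was at 2.03, 3.20, 3.001, 2.67 and 2.96 FPKM in TBI 1 to 5, against 3.27, 3.06, 4.44, 5.34 and 4.20 FPKM in sham 1 to 5. Sham 3 to 5 lay above every TBI value, sham 1 lay just above them, and sham 2 fell among them. Its log2 difference was -0.47 (SE 0.16, limma's unadjusted p = 0.0144, adjusted p = 0.988). Kcnj4 was at 8.84, 13.5, 14.5, 14.5 and 15.8 FPKM in TBI 1 to 5, against 15.03, 14.8, 23.6, 22.8 and 19.2 FPKM in sham 1 to 5. Sham 1 and sham 2 fell among the TBI values, and sham 3 to 5 lay above them. The log2 difference of Kcnj4 was -0.49 (SE 0.18, limma's unadjusted p = 0.0212, adjusted p = 0.988). Kcnj9 was at 14.7, 27.7, 26.1, 30.03 and 30.3 FPKM in TBI 1 to 5, against 26.9, 32.7, 37.3, 43.5 and 35.3 FPKM in sham 1 to 5. TBI 1 was lowest by far, and the log2 difference was -0.47 (SE 0.20, unadjusted p = 0.039, adjusted p = 0.988 by limma) with all libraries and -0.28 without TBI 1. Without TBI 1 the differences of Kcnj12 and Kcnj4 were -0.38 and -0.35. Kcnj9 overlaps Igsf8 in the GRCr8 annotation, and their reads cannot be told apart without strand.

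Among the partners of Kcnj9, Kcnj3 and Kcnj6 leaned the same way without reaching that p, and Kcnj5 did not lean down. Kcnj3, the subunit most such channels share, was at 24.2 to 46.0 FPKM in TBI and 34.7 to 49.5 FPKM in sham, a log2 difference of -0.29 (95% interval -0.67 to 0.09), which was -0.16 without TBI 1. Kcnj6 was at 13.8 to 33.7 FPKM in TBI and 19.1 to 32.6 FPKM in sham, a log2 difference of -0.18, which was -0.0042 without TBI 1. Kcnj5 was low, at 0.252 to 0.828 FPKM in TBI and 0.127 to 0.986 FPKM in sham. The difference of Kcnj5 was 0.04 on the log2 scale, and 0.16 without TBI 1. Kcnj3 was above Kcnj9 in all 10 libraries, by 1.06- to 1.65-fold per length. Kcnj11, the pore of channels closed by ATP, was at 7.14 to 10.001 FPKM in TBI and 7.11 to 11.5 FPKM in sham, with a log2 difference of -0.27 (95% interval -0.58 to 0.04).

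The groups overlapped at both astrocyte inward rectifiers. Kcnj10 was at 34.4, 39.8, 56.1, 45.8 and 44.7 FPKM in TBI 1 to 5, against 45.3, 32.7, 47.8, 45.5 and 61.02 FPKM in sham 1 to 5. Its estimate carried the status word FAIL in TBI 1 and TBI 3, the only such Kcn locus, and the values were used as deposited. The log2 difference was -0.06 (95% interval -0.43 to 0.31), and 0.02 without TBI 1. Kcnj16, which joins Kcnj10 in mixed channels, was at 5.88, 6.88, 5.29, 11.9 and 2.50 FPKM in TBI 1 to 5, against 12.04, 2.29, 3.75, 2.09 and 3.98 FPKM in sham 1 to 5. TBI 4 and sham 1 were the highest, at 11.9 and 12.0 FPKM, and the other 8 libraries had at most 6.88 FPKM. Its log2 difference was 0.51 (95% interval -0.50 to 1.53). The summed astrocyte markers were at 832 to 1531 FPKM in TBI and 1025 to 1633 FPKM in sham, and 2 of their 6 tested loci had a higher mean after TBI. The lowest sum was that of TBI 1. A locus in that sum, XLOC_015595, was at 0 FPKM in TBI 1 and 1.69 FPKM in sham 1, against 133 to 173 FPKM in the other 8 libraries.

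Members known from vessels and immune cells were low. Kcnj8, the pore of the ATP-sensitive channel of pericytes, was at 1.61 to 2.51 FPKM in TBI and 2.22 to 3.23 FPKM in sham, and Kcnj2, a strong inward rectifier of endothelium and muscle, at 2.15 to 2.62 FPKM in TBI and 1.80 to 3.77 FPKM in sham. All 5 TBI values of each lay below the sham mean on the log2 scale, with log2 differences of -0.23 (95% interval -0.54 to 0.07) for Kcnj8 and -0.15 (95% interval -0.51 to 0.20) for Kcnj2. Of 4 tested endothelial marker loci, all 4 had a lower mean after TBI, as had 49.6% of all tested loci. At an unadjusted p under 0.05 there was 1 of the 4, where 2.82% of all tested loci had one. Their log2 differences ran from -0.46, at the locus with that p, to -0.04. Their summed level was 65.5 to 80.7 FPKM in TBI and 79.7 to 118 FPKM in sham. Of 5 pericyte and smooth muscle loci 4 had a lower mean, with a sum of 65.1 to 178 FPKM in TBI and 64.1 to 178 FPKM in sham. Their part in the Kcnj8 and Kcnj2 values was not tested. Kcna3, known from lymphocytes and microglia as well as neurons, was at 4.96 to 6.62 FPKM in TBI and 4.596 to 8.19 FPKM in sham. Kcnn4, the calcium-gated channel of blood and immune cells, was at 0.126 to 0.657 FPKM in TBI and 0.112 to 0.763 FPKM in sham, under the level tested.

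Kcnh channels of the ether-a-go-go family gave the lowest group median. Kcnh7, a relative of the cardiac repolarizing channel Kcnh2, was at 3.82, 3.99, 3.39, 3.31 and 4.70 FPKM in TBI 1 to 5, against 5.72, 3.96, 5.17, 4.76 and 8.25 FPKM in sham 1 to 5. Sham 2 fell among the TBI values, and the other 4 sham values lay above them. Its log2 difference was -0.46 (SE 0.17, limma's unadjusted p = 0.0231, adjusted p = 0.988) and -0.46 without TBI 1. Kcnh4 was at 1.03, 0.9749, 0.83, 0.943 and 1.02 FPKM in TBI 1 to 5, against 0.985, 1.35, 1.58, 1.38 and 1.33 FPKM in sham 1 to 5. Sham 1 lay among the TBI values and the other 4 sham values lay above them, with a log2 difference of -0.32 (SE 0.12, limma's unadjusted p = 0.0267, adjusted p = 0.988). Kcnh3, the most abundant of the group, was at 12.8 to 24.8 FPKM in TBI and 21.8 to 30.9 FPKM in sham, a log2 difference of -0.36 with TBI 1 and -0.19 without it. The same annotation has Kcnh7 overlapping Gca, Kcnh4 overlapping LOC108352136 and Kcnh3 overlapping Mcrs1, with the same limit on their reads. Kcnh1 was at 7.50 to 11.4 FPKM in TBI and 7.32 to 10.8 FPKM in sham, and Kcnh2 at 5.74 to 8.17 FPKM in TBI and 6.14 to 8.88 FPKM in sham, so the groups overlapped at both. Kcnh6 was at 33.2 FPKM in TBI 1 and at 0.96 to 1.24 FPKM in TBI 2 to 5, against 0.462 to 1.41 FPKM in sham. Its log2 difference was 1.12 (95% interval -0.62 to 2.87) with TBI 1 and 0.24 without it.

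The Kcna channels of axons and terminals kept their order in most libraries. Kcna1 (XLOC_017503) was at 25.5 to 42.1 FPKM in TBI and 34.9 to 38.6 FPKM in sham, above Kcna2 in all 10 libraries. Kcna2 was at 10.7, 18.8, 18.6, 17.6 and 17.6 FPKM in TBI 1 to 5, against 19.9, 14.5, 19.7, 21.4 and 21.1 FPKM in sham 1 to 5. TBI 1 was the lowest and sham 2 the next lowest, and the log2 difference was -0.22 (95% interval -0.58 to 0.14), which was -0.07 without TBI 1 and -0.32 without sham 2. Kcna6 was at 12.2 to 19.8 FPKM in TBI and 10.9 to 18.5 FPKM in sham, and Kcna2 and Kcna6 changed places in 2 of 10 libraries. Kcna4 was at 5.89 to 9.16 FPKM in TBI and 7.21 to 10.1 FPKM in sham. Kcna5, named here after its values were seen, was at 4.52 FPKM in TBI 1 and 0.415 to 0.851 FPKM in TBI 2 to 5, against 0.412 to 1.22 FPKM in sham. Kcna7 stayed at or below 0.0668 FPKM.

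Kcnb2 and the Kcnd channels, which carry delayed rectifier and transient current of cell bodies and dendrites, overlapped between groups. Kcnb2 was at 1.18 to 2.17 FPKM in TBI and 1.14 to 2.04 FPKM in sham. Kcnd2, the main transient channel of pyramidal dendrites, was at 35.1 to 47.3 FPKM in TBI and 36.4 to 56.7 FPKM in sham, with a log2 difference of -0.12 (95% interval -0.41 to 0.17), and -0.07 without TBI 1. Kcnd3 was at 11.02 to 16.5 FPKM in TBI and 9.71 to 16.6 FPKM in sham, and Kcnd1 (XLOC_024780) at 2.62 to 3.72 FPKM in TBI and 2.66 to 3.65 FPKM in sham. The order of Kcnd2 over Kcnd3 over Kcnd1 held in all 10 libraries.

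The Kcnc channels Kcnc1, Kcnc2 and Kcnc4, which let interneurons and other cells fire fast, were lowest in TBI 1 and overlapped between the groups. Kcnc1 was at 10.97, 21.2, 20.3, 19.2 and 19.3 FPKM in TBI 1 to 5, against 22.7, 20.9, 21.7, 22.9 and 20.5 FPKM in sham 1 to 5. TBI 1 was the lowest by a wide margin. Kcnc4 was at 19.98, 27.9, 29.05, 30.1 and 27.5 FPKM in TBI 1 to 5, against 26.5, 28.7, 38.5, 42.9 and 32.2 FPKM in sham 1 to 5. For Kcnc4 the 3 highest libraries were sham 3 to 5. The log2 differences were -0.29 for Kcnc1 and -0.31 for Kcnc4, and -0.12 and -0.21 without TBI 1. Kcnc2, named after its values were seen, was at 9.54 FPKM in TBI 1 and 16.2 to 21.2 FPKM in TBI 2 to 5, against 15.03 to 23.2 FPKM in sham. The interneuron markers summed to 242 FPKM in TBI 1 and 352 to 419 FPKM in TBI 2 to 5, against 317 to 467 FPKM in sham. Of these markers Pvalb, Sst and Vip were lowest in TBI 1, while the Gad2 loci were not.

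The silent subunits were led by Kcng2 and Kcng1. Kcng2 (XLOC_010784) was at 14.5, 29.8, 28.6, 28.6 and 24.8 FPKM in TBI 1 to 5, against 40.8, 23.97, 23.9, 19.9 and 25.3 FPKM in sham 1 to 5. TBI 1 was lowest and sham 1 highest, and the rest lay between 19.9 and 29.8 FPKM. Kcng1 was at 12.2 to 25.7 FPKM in TBI and 15.6 to 22.9 FPKM in sham, and Kcnv1 at 7.06 to 13.9 FPKM in TBI and 10.4 to 14.2 FPKM in sham. The differences of all 3 were negative with TBI 1, at -0.08 for Kcng2, -0.07 for Kcng1 and -0.05 for Kcnv1. They were positive without it, at 0.10, 0.07 and 0.11 on the log2 scale.

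Kcnq5 and Kcnq3, subunits of the M current that restrains repeated firing, overlapped between the groups. Kcnq5 was at 22.3, 54.8, 44.7, 49.4 and 30.8 FPKM in TBI 1 to 5, against 56.3, 34.6, 33.2, 26.7 and 27.3 FPKM in sham 1 to 5. Sham 1, TBI 2 and TBI 4 were the highest, and the log2 difference was 0.16 (95% interval -0.44 to 0.76), and 0.35 without TBI 1. Kcnq3 stands on 2 loci. XLOC_021479 was at 13.4 to 20.1 FPKM in TBI and 16.9 to 24.8 FPKM in sham, a log2 difference of -0.14. XLOC_020841 was at 0.555 FPKM in TBI 1 and 13.7 to 20.6 FPKM in TBI 2 to 5, against 3.70 FPKM in sham 1 and 13.1 to 22.4 FPKM in sham 2 to 5. Summed, Kcnq3 was at 18.4, 32.4, 32.5, 27.4 and 40.7 FPKM in TBI 1 to 5, against 28.5, 30.8, 38.4, 36.1 and 42.1 FPKM in sham 1 to 5.

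Channels gated by internal ions showed no difference beyond their spread. Kcnma1, the large-conductance calcium-activated channel, was at 13.4, 23.1, 20.8, 22.8 and 18.4 FPKM in TBI 1 to 5, against 28.1, 18.2, 19.97, 19.3 and 18.4 FPKM in sham 1 to 5. Sham 1 was the highest and TBI 1 the lowest, and the log2 difference was -0.08 (95% interval -0.45 to 0.28), and 0.05 without TBI 1. The sodium-activated Kcnt2 was at 7.03 to 13.04 FPKM in TBI and 10.02 to 14.1 FPKM in sham, and Kcnt1 at 2.44 to 6.29 FPKM in TBI and 3.44 to 7.43 FPKM in sham. Kcnn2, a small-conductance channel of the afterhyperpolarization that follows spikes, was at 9.90 to 18.2 FPKM in TBI and 11.6 to 19.4 FPKM in sham. Kcnn1 (XLOC_009238) was at 4.05 to 7.58 FPKM in TBI and 6.15 to 8.14 FPKM in sham, and Kcnn3 at 2.26 to 3.10 FPKM in TBI and 1.79 to 3.33 FPKM in sham. The orders Kcnma1 over Kcnt2 over Kcnt1 and Kcnn2 over Kcnn1 over Kcnn3 held in all 10 libraries.

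Among the other leak channels Kcnk1 was the most abundant. Its locus XLOC_011415 was at 28.1, 17.5, 20.1, 21.7 and 25.5 FPKM in TBI 1 to 5, against 19.1, 28.4, 24.7, 21.02 and 21.5 FPKM in sham 1 to 5. It was one of the members not lowest in TBI 1, where it was at 28.1 FPKM, close to the 28.4 FPKM of sham 2. Kcnk15 was at 7.56, 8.98, 8.37, 8.85 and 6.78 FPKM in TBI 1 to 5, against 10.8, 8.17, 9.11, 9.60 and 10.3 FPKM in sham 1 to 5, with a log2 difference of -0.23 (SE 0.10, limma's unadjusted p = 0.0491, adjusted p = 0.988). Kcnk15 overlaps Rims4, a gene of the synaptic release site, in the GRCr8 annotation, and reads of the 2 genes cannot be told apart without strand. Kcnk4, a channel opened by stretch and lipids, was at 4.11 to 9.29 FPKM in TBI and 5.51 to 13.1 FPKM in sham. Kcnk2, its close relative, was at 4.16 to 5.28 FPKM in TBI and 3.97 to 8.95 FPKM in sham, with the highest value in sham 4. Kcnk3, Kcnk10 and Kcnk12 were at 0.871 to 8.60 FPKM over all libraries, and the groups of each overlapped.

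Auxiliary subunits made up the largest share of the family's summed FPKM. Their sum was 375, 497, 498, 441 and 517 in TBI 1 to 5, against 468, 483, 512, 451 and 592 in sham 1 to 5. Kcnab2 was at 117, 222, 258, 190.3 and 240.3 FPKM in TBI 1 to 5, against 209, 195, 251, 209 and 316 FPKM in sham 1 to 5, a log2 difference of -0.23 (95% interval -0.71 to 0.25) with TBI 1 and -0.04 without it. Kcnab1 was at 44.4 to 64.7 FPKM in TBI and 51.6 to 74.9 FPKM in sham. Kcnip4, a calcium sensor that binds Kcnd channels, was at 23.4 to 50.6 FPKM in TBI and 36.7 to 50.8 FPKM in sham, and Kcnip3 at 14.2 to 29.4 FPKM in TBI and 23.4 to 31.5 FPKM in sham. Kcnmb4, the neuronal beta subunit of Kcnma1 channels, was at 16.6 to 41.3 FPKM in TBI and 31.7 to 40.7 FPKM in sham. Kcnmb2, a beta subunit that makes those channels inactivate, was at 2.76, 3.16, 2.25, 2.76 and 1.69 FPKM in TBI 1 to 5, against 3.49, 2.22, 1.32, 1.42 and 1.42 FPKM in sham 1 to 5. Sham 1 was above every TBI library, and the log2 difference was 0.34 (95% interval -0.18 to 0.85). The loci that Kcnip2 shares with Mgea5 and Kcnrg with Trim13 were at 39.1 to 42.6 and 5.42 to 7.22 FPKM in TBI, against 33.99 to 44.8 and 5.13 to 6.34 FPKM in sham.

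Kcnj13, Kcne2 and a Kcnq1 locus ranged widely in both groups, along with choroid plexus markers. Kcnj13 and Kcne2 are known from the apical membrane of the choroid plexus epithelium, where in mouse Kcne2 joins Kcnq1. Kcnj13 at XLOC_024132 was at 121, 0.127, 35.3, 43.97 and 63.7 FPKM in TBI 1 to 5, against 0.687, 90.6, 39.8, 6.72 and 1.91 FPKM in sham 1 to 5. The highest library was TBI 1, the next sham 2, and the lowest were TBI 2, sham 1 and sham 5. Ttr, the transthyretin of the plexus, was at 32233 FPKM in TBI 1 and 31400 FPKM in sham 2, while TBI 2, sham 1 and sham 4 had 72.7, 34.5 and 56.2 FPKM. Kcne2 at XLOC_005388 was at 85.1, 0, 8.15, 12.1 and 24.98 FPKM in TBI 1 to 5, against 0.875, 22.2, 11.2, 0 and 0.791 FPKM in sham 1 to 5. It was listed at 0 in TBI 2 and sham 4, which have little Ttr. Kcne2 at XLOC_005685 was at 4.79, 1.82, 12.5, 14.2 and 23.3 FPKM in TBI 1 to 5, against 0.795, 36.4, 11.5, 1.09 and 2.07 FPKM in sham 1 to 5. Here TBI 1 was in the sixth place of 10, although it had the most Ttr. Summed over both loci Kcne2 was at 89.8, 1.82, 20.7, 26.3 and 48.3 FPKM in TBI 1 to 5, against 1.67, 58.7, 22.7, 1.09 and 2.86 FPKM in sham 1 to 5, and TBI 1 and sham 2 were again the highest. Kcnq1 at XLOC_001091, named after its values were seen, was at 2.30, 0.0242, 0.777, 0.776 and 1.15 FPKM in TBI 1 to 5, against 0.105, 2.36, 1.10, 0.0651 and 0 FPKM in sham 1 to 5. The log2 differences were 1.34 (95% interval -2.11 to 4.79) for Kcnj13, 1.79 (95% interval -1.31 to 4.90) and 0.92 for the Kcne2 loci in that order, and 0.47 for Kcnq1, each with an adjusted p of 0.988 by limma. Without TBI 1 they were 0.75 for Kcnj13, 1.03 and 1.10 for the Kcne2 loci and 0.20 for Kcnq1. Over the alternatives the difference of Kcnj13 ran from 0.00081 to 2.65 and that of Kcnq1 from 0.0080 to 0.97.

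The other loci of the same symbols did not show that range. Kcnj13 at XLOC_023751 was at 15.5, 13.8, 15.1, 16.1 and 17.4 FPKM in TBI 1 to 5, against 14.7, 12.6, 16.4, 17.7 and 16.5 FPKM in sham 1 to 5. It was the steadiest locus of the family with a mean of at least 1 FPKM that names a single gene, with 1.40-fold between its lowest and highest library. In the GRCr8 annotation Kcnj13 lies over Gigyf2, and reads of the 2 genes cannot be told apart without strand. Kcnq1 at XLOC_002586 was at 1.15, 1.46, 0.983, 1.84 and 1.63 FPKM in TBI 1 to 5, against 2.23, 1.72, 1.78, 1.97 and 1.63 FPKM in sham 1 to 5, with a log2 difference of -0.32 (SE 0.15, limma's unadjusted p = 0.0539, adjusted p = 0.988). All 5 of its TBI values lay below the sham mean on the log2 scale.

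**Figure D5:**
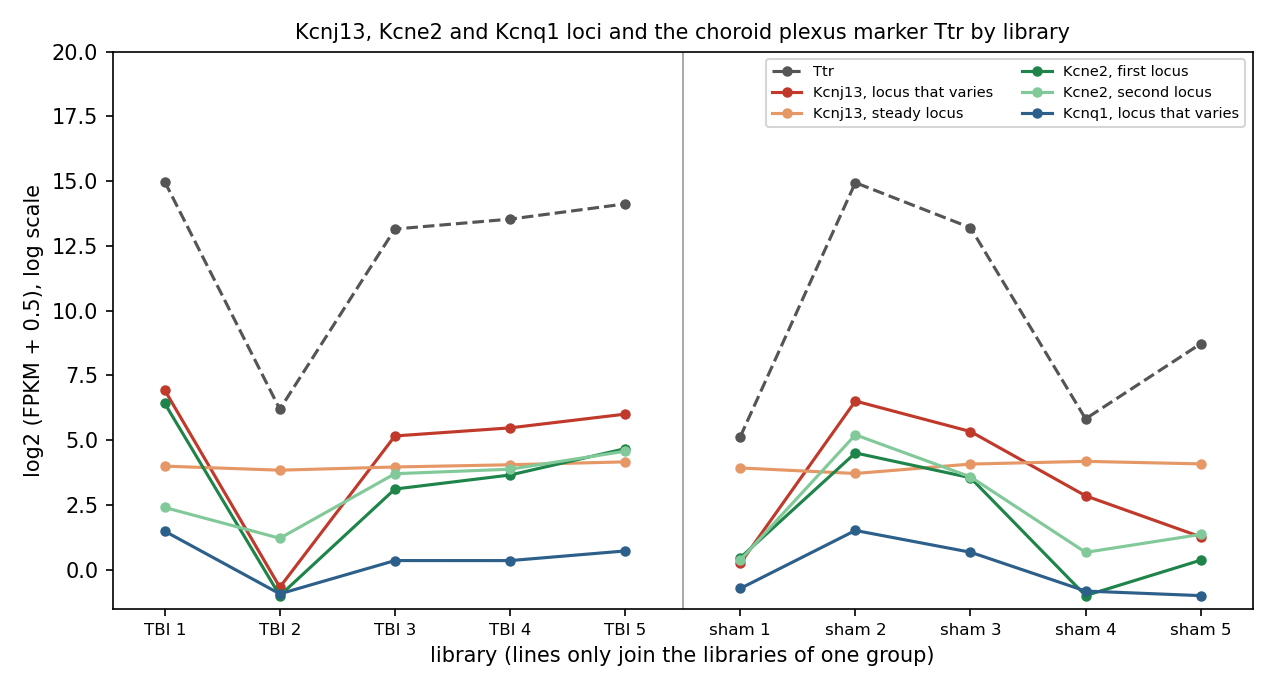
Log2(FPKM + 0.5) of Ttr (dashed) and of Kcnj13, Kcne2 and Kcnq1 loci in each library, TBI on the left and sham on the right. The varying loci are high in sham 2 and, except for the second Kcne2 locus (4.79 FPKM), in TBI 1, and low in TBI 2, sham 1, sham 4 and sham 5, while the steady Kcnj13 locus stays at 12.6 to 17.7 FPKM.

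Summing loci of one symbol changed no call. Of the 15 symbols on more than 1 locus, Kcnk6 was at 0 at both, and the summed levels of the other 14 overlapped between groups. Kcna1 summed to 43.2 ± 8.88 FPKM in TBI and 45.4 ± 4.47 FPKM in sham, Kcnd2 to 40.8 ± 4.75 FPKM in TBI and 44.9 ± 8.42 FPKM in sham, and Kcns2 to 7.86 ± 2.96 FPKM in TBI and 10.3 ± 3.23 FPKM in sham (SD, n = 5 each). Kcnk9, an acid-sensitive leak channel, split between its loci differently from library to library. XLOC_020847 was at 0.641 to 4.04 FPKM in TBI and 1.13 to 3.42 FPKM in sham, and XLOC_021491 at 1.08 to 4.08 FPKM in TBI and 1.01 to 5.65 FPKM in sham, while the sum was 5.17 ± 2.05 FPKM in TBI and 5.10 ± 1.88 FPKM in sham (SD, n = 5 each).

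Genes that work with these channels leaned down with all libraries, and little without TBI 1. A list of 42 partners (sulphonylurea receptors, Dpp subunits, scaffolds and anchors, calmodulins, Hcn channels and receptors that act through Kcnj channels, among others) matched 40 symbols on 51 loci, of which 47 were tested. Of these, 35 had a lower mean after TBI and 12 a higher one, while 49.6% of all tested loci had a lower mean. The median log2 difference of the partners was -0.10 with TBI 1 and -0.02 without it. An unadjusted p under 0.05 was found for 1 of the 47, where 2.82% of all tested loci had one. It was Sgk1, a kinase that raises the surface level of several channels, with a higher mean at 82.6 ± 25.8 FPKM in TBI and 59.4 ± 4.75 FPKM in sham (SD, n = 5 each) and a log2 difference of 0.42 (limma's adjusted p = 0.988). The groups overlapped. TBI 1 and TBI 5 were highest, at 115 and 104.9 FPKM, and TBI 3 and TBI 4 lay within the sham range of 54.9 to 65.6 FPKM.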

How the data were processed

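The authors deposited FPKM values for 25269 loci in 10 libraries of rat hippocampus, each with a word for the status of its estimate. The submitters' processing notes name Cufflinks, Cuffdiff, TopHat2, TopHat, Bowtie2 and Bowtie, and the rat build rn5, with neither roles nor versions. The annotation is not given in the sources used here. Depth is unknown, strand is not recorded, and precision rests on the spread between libraries. Sums of FPKM per library were 523239 to 629660.

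Groups were taken from the labels. Loci with a mean of at least 0.5 FPKM (16889) were tested with limma 3.58.1 in R 4.3.3 on log2(FPKM + 0.5), with a mean trend, two-sided, and Benjamini-Hochberg adjusted p under 0.05 over all of them. The added 0.5 understates the change of low loci. The procedure was tested on simulated data first. The members and lists were chosen with earlier results of these data known. Where under 10 loci pass, the rule names the 5 higher and 5 lower with the smallest p and a mean of at least 1 FPKM, the 3 most abundant of each group, and 10 members known from particular cell types. By name, 3 loci are not reported here, but they stay in the fits and the counts. The 22 alternatives are given in the closing section. Promoters and overlaps come from RefSeq (GRCr8). Libraries were not paired by number in the main fit. Correlations of the deviations of same-numbered libraries ran from -0.31 to 0.32. They are taken over all tested loci and cannot show whether same-numbered libraries shared a batch.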

Additional observations from a re-analysis of the deposited data

Results flagged for a closer look

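For 50 loci named by the rule, the highest or lowest of the 5 libraries of a group was set against the spread of that group, in 96 groups of values that varied. In 13 of them 1 library stood apart (a gap to its neighbour above 0.71 of the range). With independent, normally distributed values about 1 group in 20 would be flagged. The 96 groups share the same 10 libraries and are not independent, so no excess over that rate was tested. TBI 1 was that library in 6 and sham 1 in 5. TBI 1 was low for Kcnj9 at 14.7 FPKM, Kcna2 at 10.7, Kcnc4 at 19.98, Kcnc1 at 10.97 and Kcnh3 at 12.8 FPKM, and high for Kcnh6 at 33.2 FPKM. Sham 1 was high for Kcnj16 at 12.0 FPKM, Kcng2 at 40.8, Kcnq5 at 56.3, Kcnma1 at 28.1 and Kcnn2 at 19.4 FPKM. TBI 4 was low for Kcnk13, at 0.955 FPKM where the other TBI libraries had 1.33 to 1.45 FPKM. Sham 2 was low for Kcna2, at 14.5 FPKM where the other sham libraries had 19.7 to 21.4 FPKM. The part of tissue content in these values was not tested.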

How the results depend on the processing

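Over the 22 alternatives no Kcn locus passed the adjusted threshold (counts of 0 throughout). The exact permutation test also gave 0, but that count adds nothing, since its p cannot fall below 0.00794. Only loci without overlap between groups reach that p, 38 higher and 40 lower, too few to pass adjustment over all tested loci. Among all tested loci the number passing the adjusted threshold was 0 except for 1 without sham 4 and 1 without TBI 1 and sham 4. It was 0 to 1 when single libraries were left out. Kcn loci at an unadjusted p under 0.05, 7 here, numbered 16 with array weights, 11 with libraries 2 to 5, 11 with the replicate block, 2 without TBI 1 and sham 4, and 3 to 13 leaving out 1 library. The share of all tested loci at that p, 2.82% here, moved too. It was 8.23% with array weights, 5.10% with libraries 2 to 5 and 4.12% with the replicate block. It was 2.08% without TBI 1 and sham 4, and 2.06% to 4.84% leaving out 1 library. Kcn loci whose groups did not overlap, 1 here, numbered 1 with quantile normalization (Kcnh4, lower, while Kcnk13 overlapped), 3 with libraries 2 to 5 and 1 to 7 leaving out 1 library (7 without sham 2). Of all tested loci, 38 lay higher and 40 lower without overlap here. These numbers were 18 and 58 with quantile normalization, 261 and 199 with libraries 2 to 5, and 138 and 140 without sham 2. The family's median log2 difference of -0.13 was -0.0807 with array weights, -0.0597 with libraries 2 to 5, -0.0884 with no filter, -0.0332 without TBI 1 and sham 4, and -0.16 to -0.0596 leaving out 1 library (-0.0596 without TBI 1). The fit with the replicate block changed no other call. It cannot change a direction, since it leaves each log2 difference as it is. Whether the numbers pair the libraries is not known. All 10 loci with the smallest p and 27 of the 47 named and tested loci kept their sign throughout.

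The other 20 reversed in 76 of 1034 comparisons, each a small difference within its spread. The 1034 include fits that leave a log2 difference as it is. These are no mean trend, the replicate block, no filter and the mean of at least 1 FPKM. For symbols that stand on a single locus, summing the loci of a symbol is another. The share of reversals is therefore no measure of how stable the signs are. The log2 differences were, with array weights, Kcnb2 -0.0907, Kcng1 0.0206, Kcng2 0.15, Kcnj13 (XLOC_023751, here and after) -0.0383, Kcnma1 0.0812, Kcnn2 0.0781, Kcnt1 0.0354, Kcnt2 0.0939 and Kcnv1 0.0975. With libraries 2 to 5 they were Kcna1 0.0704, Kcna3 0.0041, Kcnb2 -0.15, Kcng1 0.12, Kcng2 0.26, Kcnip4 0.0142, Kcnj10 0.0190, Kcnj13 -0.0095, Kcnma1 0.16, Kcnn1 0.0414, Kcnn2 0.17, Kcnt2 0.11 and Kcnv1 0.0751. With quantile normalization they were Kcnb2 -0.0581 and Kcnd1 -0.0201, and with median centring Kcnb2 -0.0013 and Kcnj13 -0.0078. Without TBI 1 and sham 4, chosen after seeing the data, they were Kcna1 0.0780, Kcnb2 -0.0018, Kcng1 0.0758, Kcng2 0.0071, Kcnh2 -0.0334, Kcnj10 0.0205, Kcnma1 0.0245, Kcnn2 0.0185 and Kcnv1 0.0698. Leaving out each library in turn, they ran as follows: Kcna1 -0.11 to 0.0670, Kcna6 -0.0850 to 0.13, Kcnb2 -0.0823 to 0.0935, Kcnd1 -0.0249 to 0.11, Kcnd3 -0.0277 to 0.17, Kcng1 -0.19 to 0.0720, Kcng2 -0.18 to 0.10, Kcnh1 -0.0551 to 0.12, Kcnh2 -0.0172 to 0.11, Kcnip4 -0.26 to 0.0097, Kcnj10 -0.18 to 0.0412, Kcnj13 -0.0643 to 0.0529, Kcnk1 -0.11 to 0.0567, Kcnma1 -0.15 to 0.0462, Kcnn2 -0.16 to 0.0682, Kcnt1 -0.30 to 0.0503, Kcnt2 -0.17 to 0.0437 and Kcnv1 -0.12 to 0.11. The cause was not tested. Unknown depth limits the loci under 1 FPKM most.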

Other observations

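Among the 86 tested Kcn loci, 11 (12.8%) had sham 3, sham 4 and sham 5 as their 3 highest libraries, against 2.78% of all tested loci. They were Kcna1 (the locus with the lower level), Kcnc4, Kcnh3, Kcnh5, Kcnj2, Kcnj3, Kcnj4, Kcnj8, Kcnj9, Kcnj12 and Kcns2. Another 8 (9.30%) had TBI 2, TBI 4 and sham 1 as their 3 highest, against 4.77% of all tested loci. They were Kcnd3, Kcnf1, Kcng2, Kcnh2, Kcnj16, Kcnma1, Kcnn2 and Kcnq5. Kcnf1, a silent subunit, was at 5.42, 11.97, 3.44, 12.5 and 2.55 FPKM in TBI 1 to 5, against 15.4, 4.32, 4.91, 7.69 and 3.74 FPKM in sham 1 to 5. The sets of libraries were picked after the values had been seen, so these shares are descriptions.

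Both libraries numbered 1 were below every other library by more than 3-fold at 46 tested loci, of which 1 is a Kcn locus, Kcnq3 at XLOC_020841. It was at 0.555 FPKM in TBI 1 and 3.70 FPKM in sham 1, with at least 13.1 FPKM in the other 8 libraries. The other Kcnq3 locus was highest in sham 1, at 24.8 FPKM. Beside the pineal transcripts of TBI 1, such as Tph1 at 1031 FPKM, Crx at 64.8 FPKM and Asmt at 104.7 FPKM there, Kcnh6 was at 33.2 FPKM and Kcna5 at 4.52 FPKM in that library. In sham 2, which had the next most Tph1 at 17.97 FPKM, Kcnh6 was at 1.11 FPKM and Kcna5 at 1.17 FPKM.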
